A study of Mus musculus with 2 samples.

Results

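Interferon regulatory factors (IRFs) are transcription factors that control interferon genes, the genes that interferons turn on, and the identity of several blood cell types. The 8 genes chosen by name were Irf1, Irf2, Irf3, Irf4, Irf5, Irf7, Irf8 and Irf9. A gene was measured where a probe set of the array carried its symbol and no other. Of several such probe sets, the one brightest on average was used. By this rule 7 of the 8 genes were measured, among 22180 genes in all. The only probe set that lists Irf5 also lists Tnpo3, so Irf5 was not analysed here.

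The cells were BAC 1.2F5 macrophages, a mouse line of BALB/c x A.CA F1 background that needs colony-stimulating factor 1 (CSF-1). CSF-1 (3000 units/ml) and FBS (10%) were in the medium of all cells. One Affymetrix Mouse Gene 2.0 ST array was made from unstimulated cells in plain medium, and 1 from cells that received 12 nM NRG1, a ligand of ErbB receptors, and 50 ng/ml CXCL1, a chemokine, in that medium for 2 h. With 1 array per condition there was no replicate error, so no test was run, no p-value was computed, and the number of arrays limits the precision of every value. Both agents were given together, so that their effects cannot be told apart, and stimulation and culture cannot be told apart either.

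IRFs bind DNA through a conserved domain that recognizes repeats of the letters GAAA, found in interferon-stimulated response elements. IRF3 and IRF7 lie in the cytoplasm until the kinases TBK1 or IKKε phosphorylate them, and they then enter the nucleus and switch on interferon genes. IRF9 is the DNA-binding part of the complex ISGF3, which carries the response to type I interferon, whereas IRF1 is made in response to interferon γ or NF-kB and IRF2 can oppose it. IRF8 and IRF4 bind DNA together with PU.1, and IRF8 is a lineage factor of macrophages and dendritic cells. The arrays measure mRNA, not the phosphorylation or location of these proteins.

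The DNA just before the start of Irf1, Irf8 and Irf2 is shown because these are the IRF genes whose window held a motif of IRF, STAT or NF-kB factors, and that of Cxcl10 as 1 example from the linked genes that were higher in the stimulated array. Each line gives the 250 bases before the start listed in RefSeq on GRCm38.p6, 5′ to 3′ on the strand of the gene, and capitals mark the motif matches described below. Irf1 lies at chr11:53769764-53770013 (+ strand), Irf8 at chr8:120736108-120736357 (+ strand), Irf2 at chr8:46739495-46739744 (+ strand) and Cxcl10 at chr5:92348890-92349139 (- strand).
Irf1: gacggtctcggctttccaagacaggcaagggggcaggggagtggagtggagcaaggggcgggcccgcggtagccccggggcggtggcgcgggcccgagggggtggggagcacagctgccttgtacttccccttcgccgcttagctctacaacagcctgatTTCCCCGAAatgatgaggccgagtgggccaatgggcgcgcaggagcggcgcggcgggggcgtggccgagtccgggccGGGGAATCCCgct
Irf8: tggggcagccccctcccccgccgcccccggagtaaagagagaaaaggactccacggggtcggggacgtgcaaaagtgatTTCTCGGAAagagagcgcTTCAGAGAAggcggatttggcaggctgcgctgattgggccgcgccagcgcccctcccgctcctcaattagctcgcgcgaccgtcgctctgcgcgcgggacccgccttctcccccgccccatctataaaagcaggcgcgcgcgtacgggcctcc
Irf2: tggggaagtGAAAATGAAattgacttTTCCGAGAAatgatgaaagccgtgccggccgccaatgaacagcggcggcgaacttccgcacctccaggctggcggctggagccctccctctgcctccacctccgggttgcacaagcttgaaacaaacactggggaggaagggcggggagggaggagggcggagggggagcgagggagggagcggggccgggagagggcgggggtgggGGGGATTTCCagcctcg
Cxcl10: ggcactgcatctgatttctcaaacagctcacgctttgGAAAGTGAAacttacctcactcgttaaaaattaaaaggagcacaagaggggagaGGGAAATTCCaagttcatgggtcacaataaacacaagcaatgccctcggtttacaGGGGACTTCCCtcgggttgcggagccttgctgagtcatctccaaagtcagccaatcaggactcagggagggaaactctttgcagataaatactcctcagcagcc

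The motifs searched on both strands were the IRF element GAAANNGAA, the STAT element TTCNNNGAA (also called GAS) and the NF-kB motif. No match of a motif overlapped that of another motif, and of matches to the same motif only those of NF-kB in Cxcl10 overlapped. Of 17492 promoters of protein-coding genes, with 1 window of 250 bases each, 6.93% held the IRF element, 6.65% the STAT element and 7.59% the NF-kB motif. Irf1 held the STAT element TTCCCCGAA at positions -90 to -82 from the start and the NF-kB motif GGGGAATCCC at -13 to -4. Irf8 held 2 STAT elements, TTCTCGGAA at -171 to -163 and TTCAGAGAA at -153 to -145. Irf2 held all 3 motifs, with the IRF element GAAAATGAA at -241 to -233, the STAT element TTCCGAGAA at -224 to -216 and the NF-kB motif GGGGATTTCC at -17 to -8. The windows of Irf3, Irf4, Irf5, Irf7 and Irf9 held none of these letters. Cxcl10 held the IRF element GAAAGTGAA at -213 to -205 and 3 matches of the NF-kB motif, GGGAAATTCC at -159 to -150 and the overlapping GGGGACTTCC and GGGACTTCCC from -104 to -94. The windows of Tnf and Ikbke, also higher in the stimulated array, were searched too and held none of the 3 motifs. Kdm6b, higher as well, had no window in this search. A second window is listed for Irf1, Irf8 and Irf9, and it held none of the 3 motifs. A match describes the letters of a window and is not a binding site.

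Of the 7 measured IRF genes, 6 had signals above background in both arrays, and none of the 6 differed by 1.5-fold between them. Values are the deposited log2 signals, and a difference is the stimulated minus the unstimulated array. Background was set per array at the 95th percentile over 1108 probe sets for olfactory receptors, odor receptor genes taken as silent in macrophages. This level was 6.86 for unstimulated and 6.91 for stimulated cells. Over the same probe sets the difference had an SD of 0.21. This SD was taken mostly at signals below background, so the spread at the levels of the 6 IRF genes was not measured. In this macrophage line, 13260 genes were above background in at least 1 array.

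**Figure D1:**
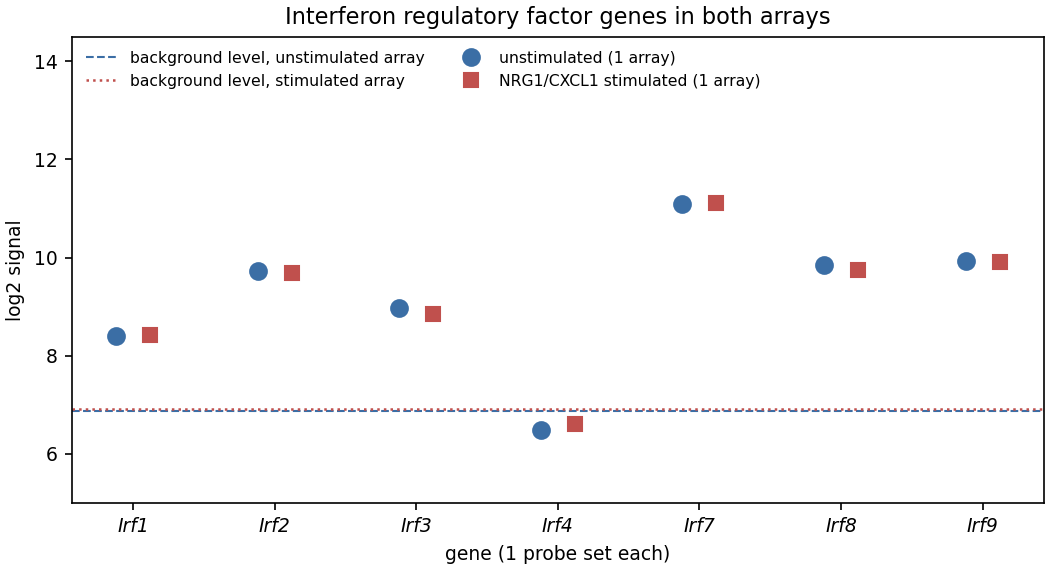
Log2 signal (vertical axis) of the 7 measured IRF genes in the unstimulated array (circles) and the NRG1/CXCL1 stimulated array (squares), with 1 array per condition and no error bars, and the background level of each array (lines). All genes but Irf4 lie above both lines in both arrays, and levels of different genes come from different probe sets and are not comparable.

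Irf1 and Irf2 had close values in the 2 arrays. IRF1 is an activator that NF-kB and interferon γ induce in macrophages. Irf1 (probe set 17249593) had values of 8.39 (unstimulated) and 8.43 (stimulated), which were 1.53 and 1.51 above background. The difference was 0.035, or 1.02-fold, and 73.2% of the 13260 genes had a larger absolute difference. Irf2, which encodes the factor that can oppose IRF1 on the same DNA elements, had values of 9.72 and 9.67, a difference of -0.042. These were the IRF genes whose windows held an NF-kB motif.

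The genes of the signal-activated IRFs also had close values in the 2 arrays. Irf3 (17477655), which encodes the constitutive factor that first switches on interferon β, had values of 8.97 and 8.85, the largest difference of the 6 genes at -0.12. This is 1.09-fold lower in the stimulated array, and 30.1% of the 13260 genes had a larger absolute difference. Irf7 (17497813), an interferon-induced gene whose product amplifies interferon α production, had values of 11.10 and 11.11, which were 4.23 and 4.19 above background. Its difference of 0.011 was exceeded by 91.3% of the genes. Irf9 (17300591), the DNA-binding subunit of ISGF3, had values of 9.93 and 9.91, a difference of -0.025.

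IRF8 and IRF4 are the members that pair with PU.1, and they lay on opposite sides of the background level. Irf8 (17506279) had values of 9.85 and 9.74, 2.99 and 2.82 above background, a difference of -0.12. A second probe set of Irf8 (17548703) had values of 7.20 and 7.21, a difference of 0.010, so that the probe sets of this gene did not share a direction. Irf4 (17286295), which is active in lymphocytes and in alternatively activated macrophages, had values of 6.49 and 6.60, which relative to background were -0.37 and -0.32, so neither a level nor a fold was read. All other IRF genes have 1 probe set.

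At 1.5-fold and above background in the higher array, 0 of the 6 IRF genes were higher and 0 were lower in the stimulated array, where 0.671% of the 13260 genes were higher and 0.0302% lower. With shares this small in the whole array, a count of 0 among 6 genes is near the background. The count was also 0 in each direction at a lower fold, a difference of 0.32 on the log2 scale, which 2.1% of the genes passed as higher and 1.39% as lower. At 2-fold, 0.234% of the genes and 0 IRF genes were higher. By any amount, 2 IRF genes (Irf1 and Irf7) were higher and 4 (Irf2, Irf3, Irf8 and Irf9) were lower, against 42.1% and 57.1% of all genes. After centering of the arrays on their medians Irf7 turned to -0.0095 and the counts were 1 and 5, with 34.4% of all genes higher. The median difference of the 6 was -0.034, beside -0.019 over the 13260 genes. The central 95% of the 13260 differences ran from -0.27 to 0.30, and the 6 IRF differences, from -0.12 to 0.035, lay inside it. Each was smaller in size than the SD of the olfactory receptor differences, as were 88.9% of the genes. That SD belongs to lower signals than those of the 6 genes, so it does not give their error.

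**Figure D2:**
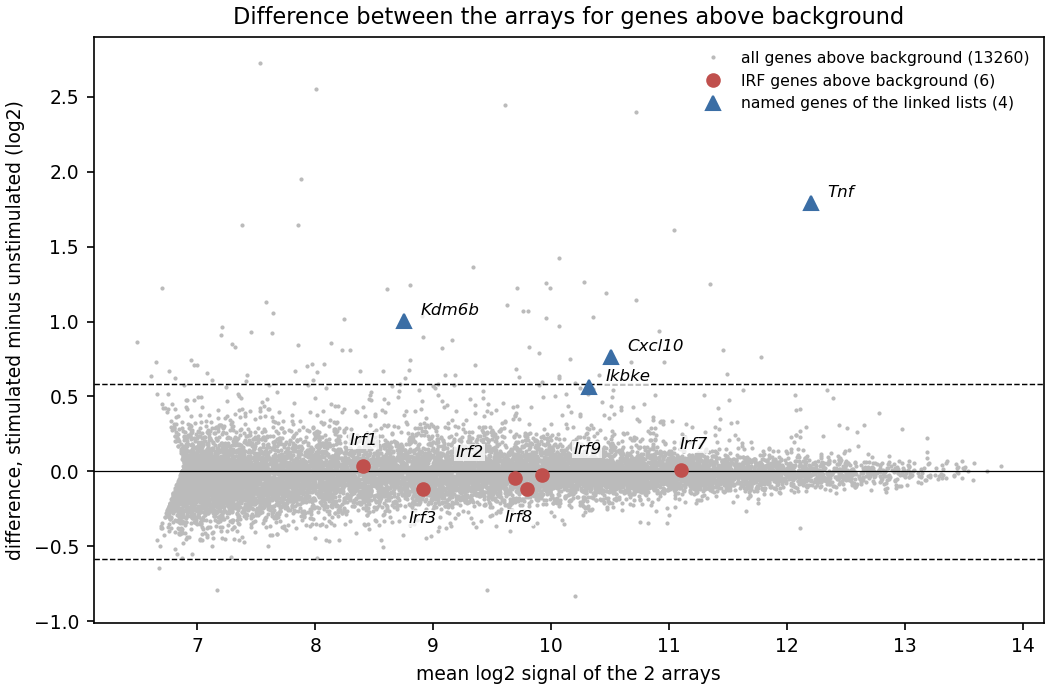
Difference between the arrays (stimulated minus unstimulated, log2) against the mean log2 signal for the 13260 genes above background in at least 1 array (grey points), with the 6 IRF genes (circles), 4 genes of the linked lists (triangles) and dashed lines at 1.5-fold. The IRF genes lie between -0.12 and 0.035, while Ikbke, Cxcl10, Kdm6b and Tnf lie above them, from 0.56 to 1.79.

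As genes of like pattern, those whose difference lay nearest to the -0.12 of Irf3 were Uri1, Mrpl28 and Batf2, each also at -0.12. The likeness is the gap between differences over only 2 arrays, and 503 of 11590 genes lay within 0.01 of Irf3, so that it singles out no gene.

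The genes of the partners of the IRFs had differences from -0.14 to 0.061. Of 8 measured partner genes, all were above background in both arrays, 2 were higher and 6 lower, and 0 passed 1.5-fold, with a median difference of -0.030. For comparison with this list and those below, 42.1% of the 13260 genes were higher and 57.1% lower by any amount. At 1.5-fold, 0.671% were higher and 0.0302% lower. Stat2, which encodes a subunit of ISGF3, had values of 9.22 and 9.09. Spi1, which encodes PU.1, had values of 10.82 and 10.89. Batf2, whose product pairs with IRF1 in mouse macrophages, had values of 7.60 and 7.48, and Irf2bp2, a corepressor gene found through IRF2, had values of 11.57 and 11.53. The 7 genes of interferon receptors and their kinases were likewise above background in both arrays. Their differences ran from -0.0094 to 0.22 with a median of 0.026, and 6 were higher and 1 lower by any amount, or 4 and 3 after centering, where the median was 0.0056. The highest was that of Jak2, a kinase of the interferon γ receptor, with values of 10.40 and 10.61. Ifnar1, a type I interferon receptor chain, had values of 11.14 and 11.22.

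Upstream of the IRF proteins, the kinase gene Ikbke had the largest difference among the listed genes that activate them. Of 13 measured kinases, adaptors and sensors, 13 were above background in both arrays. By any amount 10 were higher and 3 lower, beside 42.1% and 57.1% of all genes. None passed 1.5-fold, where 0.671% of all genes were higher, and the median difference was 0.081. Ikbke, which encodes IKKε, the inducible kinase of IRF3 and IRF7, had values of 10.03 and 10.60. Its difference of 0.56 lies just under the 0.58 that 1.5-fold stands for. The gene listed as 5430427O19Rik had values of 9.14 and 9.58, a difference of 0.44. Ticam1, which encodes the adaptor TRIF of Toll-like receptors, had values of 8.96 and 9.29, a difference of 0.32. Slc15a4, a lysosomal transporter gene needed for IRF activation by Toll-like receptors of endosomes, had values of 10.65 and 10.82, a difference of 0.16. These 4 genes were higher in the stimulated array, and all but Slc15a4 passed the lower fold, which 2.1% of all genes passed as higher. Ticam1, at 0.324, lay just past its limit of 0.322.

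The interferon genes themselves were mixed in direction. Of 19 measured, 7 were above background in both arrays, 3 higher and 4 lower, with none past 1.5-fold and a median difference of -0.040, which turned to 0.019 with background at the 99th percentile of olfactory receptors. Ifnl2, an interferon λ gene, had values of 9.26 and 9.05, and Ifnl3 had values of 7.88 and 8.03, differences of -0.22 and 0.15. Ifna14 and Ifna7 had differences of 0.11 and -0.096. Interferon α genes are nearly identical to each other in sequence, as are Ifnl2 and Ifnl3, so a probe set may bind RNA of several, and the value of a single gene is uncertain. Ifnb1, named here after its values were seen, encodes interferon β, the first product of IRF3, and was not above background in either array, with values of 5.30 and 4.87.

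Among genes that ISGF3 turns on, Cxcl10 was the one past 1.5-fold. Of 16 measured, 14 were above background in both arrays, 10 higher and 4 lower, with a median difference of 0.044. Cxcl10, a chemokine gene, had values of 10.13 and 10.89, a difference of 0.76 or 1.70-fold. Its window, shown above, held 3 NF-kB matches beside the IRF element, and which factor acts on it was not tested. Rsad2, which encodes the antiviral protein viperin, had values of 7.86 and 8.26, a difference of 0.40. Isg15, a ubiquitin-like modifier gene, had values of 6.97 and 7.24, near background in the unstimulated array. Ifit2, an antiviral gene, had values of 8.46 and 8.32, a difference of -0.14. The other 10 genes above background had smaller absolute differences than Ifit2.

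Target genes listed under IRF1, or under IRF8 with PU.1, were mixed. These lists and that of IRF5 share some members, so they do not separate the IRFs. For IRF1, 11 of 15 measured targets were above background, 3 were higher and 8 lower, none passed 1.5-fold, and the median difference was -0.049. Nos2, which encodes inducible nitric oxide synthase, had values of 7.56 and 7.89, and Il15, a cytokine gene, had values of 8.05 and 8.34. Psmb9, an immunoproteasome subunit gene, and Socs1, an inhibitor of JAK kinases, had differences of -0.17 and -0.11. For IRF8 and PU.1, 7 of 8 measured targets were above background, 4 higher and 3 lower, with a median of 0.041. Tlr9, a receptor for DNA, had values of 9.34 and 9.63, and Cybb, the NADPH oxidase subunit gp91phox, had values of 12.19 and 12.43. Ctss, which encodes the protease cathepsin S, and Naip5, a sensor of flagellin, had differences of 0.078 and -0.15.

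The largest differences of the linked lists belonged to targets of IRF5 and genes of the IRF4 program, most of which were not above background. For IRF5, 2 of 6 measured targets were above it. Tnf, a cytokine gene that NF-kB also drives, had values of 11.31 and 13.10, a difference of 1.79, and Ccl5, a chemokine gene, had values of 11.62 and 11.78. The median of these 2 genes was 0.97, and 0.13 over all 6. In the IRF4 list, 3 of 7 measured genes were above background in at least 1 array. Kdm6b, a histone H3K27 demethylase gene that acts before Irf4 in alternative activation of mouse macrophages, had values of 8.25 and 9.25, a 2.00-fold difference. Kdm6b has 2 probe sets, and these values are those of the brighter one only. Ccl22, a chemokine gene of the same program, had values of 8.65 and 9.05, and Arg1, which encodes arginase, had values of 6.95 and 6.88 at the background level. The median of the 3 was 0.40, and 0.070 over all 7.

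Over the 9 linked lists, with each gene counted once, 72 of 97 measured genes were above background. Of these 3 (Tnf, Kdm6b and Cxcl10) were at least 1.5-fold higher and 0 lower, a share of 4.17% beside the 0.671% of all genes. At the lower fold, 9 were higher and 0 lower, or 12.5% beside 2.1%. Of the 9, Ticam1 at 0.324 and Nos2 at 0.333 lay just past the limit of 0.322. This count was taken only on the values as deposited. The lists were chosen with earlier results of these data, those of Tnf among them, known, so these shares are a description.

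**Figure D3:**
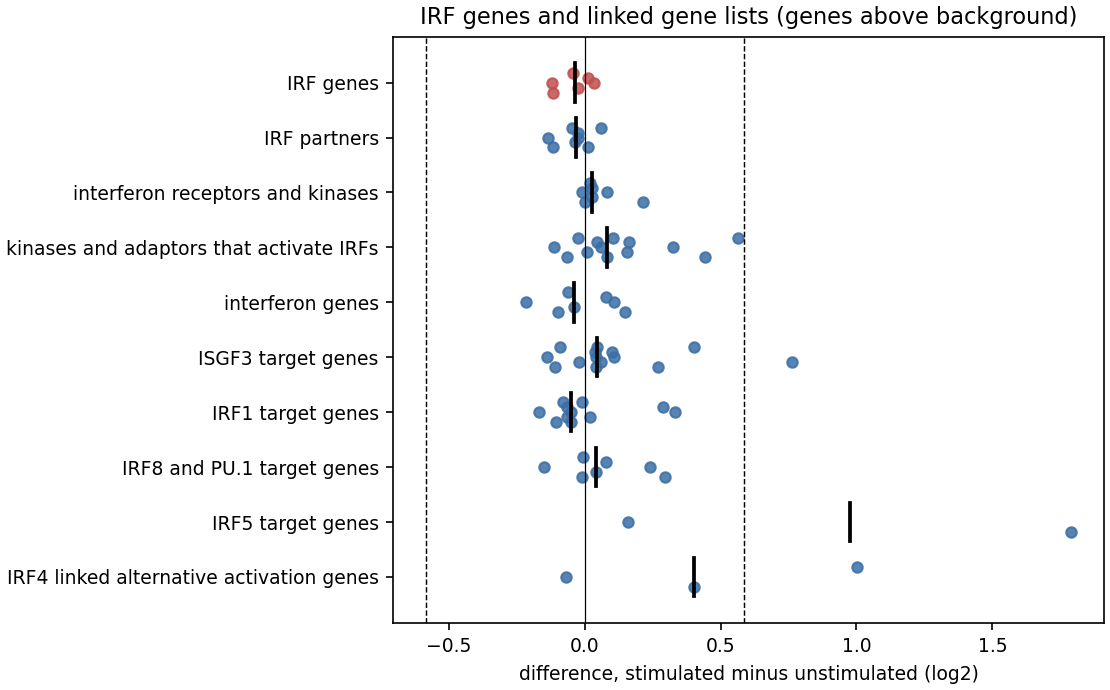
Differences (stimulated minus unstimulated, log2, horizontal axis) of genes above background in at least 1 array for the IRF genes (top) and 9 linked lists, with 1 point per gene, a bar at each median and dashed lines at 1.5-fold. The IRF genes lie between -0.12 and 0.035 around a median of -0.034, and 3 genes of the linked lists, Cxcl10, Kdm6b and Tnf, lie past 1.5-fold.

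The markers of the labelled cell type were present, with 9 of 9 measured macrophage genes above background in both arrays, at 8.81 to 13.07 without and 8.66 to 13.04 with stimulation, and a median difference of -0.026. Of markers of other cells that use IRF4, IRF7 or IRF8, 2 of 5 B cell genes passed background without and 1 with stimulation, none higher than 7.15. For plasmacytoid and conventional dendritic cells the counts were 2 of 6 and 3 of 5 in each array, with Cd209a, at 10.93 and 10.84, and Cox6a2, at 9.08 and 9.01, as the highest. None of the 5 T and NK cell genes or 6 neutrophil genes was above background. The labels name a macrophage line, so a signal of these markers is not read as the presence of another cell type. In bulk RNA, fewer cells of a type and less RNA per cell cannot be told apart.

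**Figure D4:**
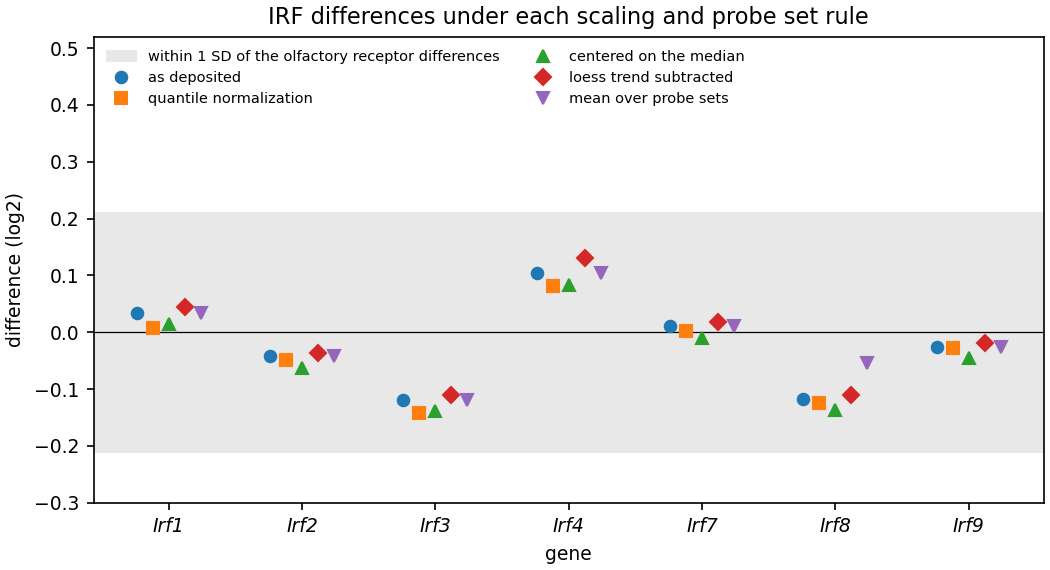
Difference of each measured IRF gene (log2, vertical axis) with the values as deposited, after 3 other scalings, and with the mean over the probe sets of a gene, where the grey band marks 1 SD (0.21) of the olfactory receptor differences. All points lie inside the band, from -0.14 for Irf3 to 0.13 for Irf4, which is below background, and Irf7 crosses 0. The band comes from probe sets mostly below background and is not an error of the IRF genes.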

How the data were processed

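The 2 Affymetrix arrays (Mouse Gene 2.0 ST) were run and normalized for the authors at a core facility, from total RNA of column kits. The deposited values, 2.90 to 14.07 with medians of 6.81 and 6.83, were taken as log2 signals because of this range. The sources used here give neither the scale nor the normalization method nor the software, so folds rest on that reading. The direction is that of the labels, and probe sets were not centered.

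Genes were named from the platform annotation, which gives 1 symbol to 23521 of 41345 probe sets, several to 1820 and none to 16004. All IRF genes were named, and at most the 4 genes above background with the largest absolute difference of each other list. The members and lists were chosen with earlier results of these data known. Alternatives were other scalings (quantile, median, loess with span 0.3), background levels, folds and probe set rules. Promoter sequences are from RefSeq (GRCm38.p6), matched by symbol for all 8 genes. The counting code was run on simulated data, with changes planted in probe sets brighter than those of Irf1 and Irf3 and none at 1.5-fold. That run checks the code and says nothing on the precision of these values. Values were computed in Python 3.11.15 (pandas 2.3.3, numpy 2.4.6), loess trends with statsmodels 0.14.6 and plots with matplotlib 3.10.9.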

Additional observations from a re-analysis of the deposited data

How the results depend on the processing

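No paired analysis was possible because there is 1 array per condition, and no replicate could be left out. A gene counted as moved where its difference shifted by at least 0.21 (1 SD over olfactory receptors), a list median where it shifted by that SD over the square root of its number of genes, and a count where it changed more than 1.5 times. Of 122 values under alternatives, 117 did not move, but many had little or no room to. The limit of 0.21 is larger than every IRF difference, so a shift to 0 or a small change of sign does not count as moved. All measured IRF genes but Irf8 have 1 probe set, so the mean over probe sets repeats their values. A count of 0 at 1.5-fold also fixes that at 2-fold. The count of IRF genes past 1.5-fold was 0 in each direction under every scaling, background level and probe set rule run. It was also 0 without a background filter. At 1.1-fold, chosen after seeing the data, the count was 0 but was taken only on the values as deposited. Irf3, at -0.142 after quantile normalization and -0.139 after centering, lies past 1.1-fold lower under those scalings. With background at the 99th percentile of olfactory receptors, 6 IRF genes were above it in each array, and 7, Irf4 included, with background at the array's own 25th percentile. The IRF median, -0.034, ran from -0.055 after centering to -0.025 over all 7 genes. With the mean over both probe sets Irf8 was at -0.053. The 5 values that moved are medians of lists with few genes above background. The IRF5 target median was 0.11 with the 25th percentile background and 0.13 over all measured genes. The median of the IRF4 list was 0.70 with the 99th percentile background, 0.15 with the 25th percentile and 0.070 over all measured genes. These settings change which genes enter. None of the 10 list medians changed sign under the 3 scalings, but that of the interferon genes, -0.040, turned to 0.019 with the 99th percentile background. Counts of higher and lower genes within lists shifted by at most 2 genes under the scalings. The median of all 13260 genes moved by less than 0.1 under each scaling. For Irf4, at its low signal, no difference can be read.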
